A study of Mus musculus with 4 samples.

Results

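The 10 genes described here encode receptors, a ligand and junction proteins of blood vessel endothelium. They are the ligand Vegfa, the VEGF receptors Kdr, Flt1 and Flt4, and the Tie receptors Tek and Tie1. The others are the co-receptor Eng and the junction proteins Cldn5, Cdh5 and Pecam1. Every probe set whose only gene symbol in the array's annotation is one of these names was taken, which gave 13 probe sets of 12422 against transcripts. All 10 genes had a probe set; Flt1, Flt4 and Tie1 had 2 each. Of the 13 probe sets, 12 exceeded an intensity floor of 174 on at least 1 array, as did each of the 10 genes, which stood among 8251 genes with a symbol. RNA came from epididymal white adipose tissue, the fat pad beside the testis, of male C57 BL6 mice aged 3 to 4 months, and was pooled before it was measured. One pool was a control. The others came from mice that had received CL 316243, a drug that activates β3-adrenergic receptors on fat cells, for 1, 3 or 6 days at a rate of 3 nmol/hr. Each pool was measured on 1 expression array, so there was no replicate, no test was possible and the number of arrays limits the precision. How many mice each pool held, and what the control mice received, is not stated in the labels used here.

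Endothelial cells line blood and lymph vessels. The growth factor VEGF-A binds the receptor tyrosine kinases VEGFR2 (Kdr) and VEGFR1 (Flt1) and drives vessel sprouting and permeability, while VEGFR3 (Flt4) serves mainly lymphatic endothelium in the adult. Tie2 (Tek) binds the angiopoietins and keeps vessels quiescent, and claudin-5 and VE-cadherin seal the tight and adherens junctions between neighbouring endothelial cells. In white fat, fat cells are a source of VEGF-A, and the capillary bed supplies oxygen and carries the fatty acids that lipolysis releases.

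The deposited values were linear intensities whose distributions were nearly identical on the 4 arrays, with medians of 314.0 to 314.5. Arrays were scaled to the same mean, and values were raised to a floor of 174 intensity units before folds were taken; between 59.9% and 60.1% of probe sets lay above it. A gene is called higher or lower when 2 arrays differed at least 2-fold, and is represented by its brightest probe set. The error of a log2 change, estimated from pairs of probe sets for the same gene, came to 0.33 (day 1 against control), 0.27 (day 3) and 0.25 (day 6) over 791 to 818 genes. It covers the measurement and not variation between animals or pools. The 3 comparisons with control share the control array.

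The sequence before the transcription start is shown for 4 genes that stand for the range of patterns: Cldn5 with the largest fall, Flt4 with the lowest level at day 6, Eng with its highest level at day 1, and the ligand Vegfa. Each line gives the 250 bases before the RefSeq start, 5′ to 3′ on the gene's strand, in build GRCm38.p6; capitals mark CACCC or its reverse complement GGGTG, the core of sites bound by Krüppel-like factors, a family with members that act in endothelium.
Cldn5, plus strand, chr16:18776597-18776846: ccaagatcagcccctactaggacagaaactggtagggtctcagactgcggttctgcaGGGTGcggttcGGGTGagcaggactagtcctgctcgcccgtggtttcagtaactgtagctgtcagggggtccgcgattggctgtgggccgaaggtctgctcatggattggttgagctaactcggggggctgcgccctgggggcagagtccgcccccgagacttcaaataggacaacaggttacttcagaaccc
Flt4, plus strand, chr11:49609429-49609678: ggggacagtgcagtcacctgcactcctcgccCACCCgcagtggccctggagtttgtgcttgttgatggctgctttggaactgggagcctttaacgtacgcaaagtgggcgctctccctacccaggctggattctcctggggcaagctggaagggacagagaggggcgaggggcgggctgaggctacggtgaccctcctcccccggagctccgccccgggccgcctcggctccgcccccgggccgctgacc
Eng, plus strand, chr2:32646345-32646594: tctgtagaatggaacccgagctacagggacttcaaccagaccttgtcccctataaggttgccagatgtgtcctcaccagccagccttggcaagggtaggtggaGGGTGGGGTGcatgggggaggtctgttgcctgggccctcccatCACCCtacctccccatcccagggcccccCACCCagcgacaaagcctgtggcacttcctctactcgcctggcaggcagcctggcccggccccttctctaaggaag
Vegfa, minus strand, chr17:46032378-46032627: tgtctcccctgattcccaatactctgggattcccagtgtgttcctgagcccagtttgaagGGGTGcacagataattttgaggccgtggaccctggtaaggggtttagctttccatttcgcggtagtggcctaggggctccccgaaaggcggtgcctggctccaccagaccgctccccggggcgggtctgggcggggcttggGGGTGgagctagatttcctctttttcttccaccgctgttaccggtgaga
The promoter table held 8 of the 10 genes. CACCC on either strand stood in 8 of the 8, and in 52% of 32851 promoter windows of the same length. GGAA or its reverse complement TTCC, the core of ETS factor sites, which can share an end base with CACCC, stood in 7 of the 8, all but Cldn5, and in 93.4% of all windows. TGACGTCA, the full cAMP response element, stood in 1 of the 8, Flt1, and in 1.55% of all windows; the shorter TGACG or CGTCA, which the full element contains, also stood in Flt1 alone, against 17.8% of all windows. The hypoxia response core ACGTG or CACGT stood in 0 of the 8 and in 16.6% of all windows. For Flt1, Kdr and Tek the start used is not the outermost start of the gene. The Flt1 element, in capitals, begins 81 bases before the start used.
Flt1, minus strand, chr5:147726074-147726103: gggggacccctTGACGTCActggaaggagg
These matches describe letters in a window and not binding. Sites farther than 250 bases before the start used were not searched, so a motif absent here may stand farther out.

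Vegfa, the ligand, was lower at day 1 and higher at day 6, within 2-fold on each day. Its intensity was 1058 in control fat, 699 after 1 day, 971 after 3 days and 1462 after 6 days. The lowest and the highest of the 4 arrays were thus both treated ones. The log2 change was -0.60 at day 1, -0.12 at day 3 and 0.47 at day 6. At day 3 it was smaller than the probe set error, and on the other days it was under 2 such errors.

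Of the other VEGF family ligands and the neuropilin co-receptor, 5 had a probe set, and 1 fell past 2-fold at day 1 and at day 3. That gene was Vegfb, a ligand of Flt1, with 5311 in control, 1236 at day 1, 2609 at day 3 and 3086 at day 6. It fell 4.30-fold at day 1 and 2.04-fold at day 3, and at day 6 stood 1.72-fold below control. Vegfc, a ligand of Flt4, was at 188 in control and below the floor on the 3 treated arrays, so its change has only a bound of at least 1.08-fold. Vegfd, another ligand of Flt4, stood at 1165 in control, 934 at day 1, 1709 at day 3 and 914 at day 6, within 2-fold throughout. Nrp1, which binds VEGF-A together with Kdr, had log2 changes between -0.39 and -0.11 by its brighter probe set.

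**Figure D1:**
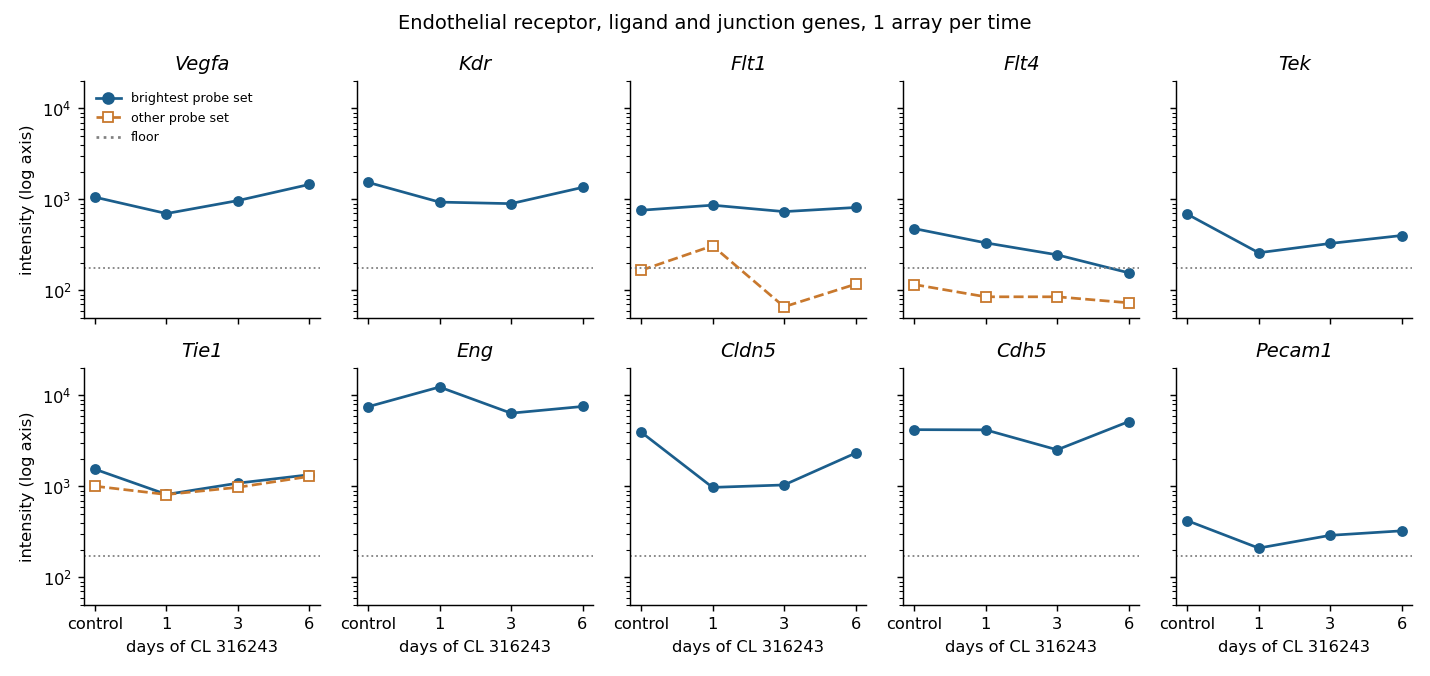
Intensity (log axis) of each of the 10 genes in control fat and after 1, 3 and 6 days of CL 316243, 1 array per point, with no error bars because there were no replicates. Solid lines are the brightest probe set of a gene, dashed lines its other probe set, and the dotted line is the floor of 174; Cldn5 drops to 976 and 1038 on days 1 and 3 and stands at 2326 on day 6, and Flt4 is at 156, below the floor, on day 6.

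Of the 3 VEGF receptors, Flt4 fell past 2-fold and Kdr and Flt1 stayed within it. Kdr, the main signalling receptor for VEGF-A, had an intensity of 1539 in control, 934 at day 1, 898 at day 3 and 1355 at day 6. The arrays of days 1 and 3 were low and nearly equal, and day 6 lay close to control. These are log2 changes of -0.72, -0.78 and -0.18 against control, none of them past 2-fold. Between days 3 and 6 Kdr was 1.51-fold higher at day 6.

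Flt1, which binds VEGF-A tightly and limits how much reaches Kdr, differed little between arrays. Its brighter probe set read 760 in control, 864 at day 1, 734 at day 3 and 815 at day 6, and each of the 3 log2 changes (0.19, -0.05 and 0.10) was smaller than the probe set error. The dimmer probe set read 166 in control, 309 at day 1, 66 at day 3 and 117 at day 6. It was above the floor at day 1 alone, with a change of at least 1.78-fold against control.

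Flt4, the lymphatic VEGF receptor, was lower at each later time. It read 478 in control, 333 at day 1, 246 at day 3 and 156 at day 6, the last below the floor. The log2 change was -0.52 at day 1 and -0.96 at day 3, just under 2-fold at 1.94-fold, and at day 6 Flt4 fell at least 2.75-fold. The other Flt4 probe set never exceeded the floor, with 116 in control and 85, 85 and 73 on the treated days, so the decline rests on 1 probe set of low intensity. Of 3 further lymphatic markers, the hyaluronan receptor Lyve1 read 782 in control, 994 at day 1, 360 at day 3 and 524 at day 6 and fell 2.17-fold at day 3. Podoplanin (Pdpn), also made by stromal cells, read 849, 3188, 700 and 546 over the same times and rose 3.76-fold at day 1. The lymphatic transcription factor Prox1 was below the floor on all 4 arrays.

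Both Tie receptors were lowest at day 1. Tek read 689 in control, 259 at day 1, 328 at day 3 and 401 at day 6. All 3 treated arrays were below control, and the day 1 array was the lowest. Tek fell 2.66-fold at day 1 and 2.10-fold at day 3, and at day 6 was 1.72-fold below control. In the band of brightness that holds Tek (mean between 2 and 4 floors), 10.7% of 1680 probe sets fell past 2-fold at day 1 and 4.94% at day 3.

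Tie1, an orphan relative of Tek that modulates its signalling, read 1546 in control, 817 at day 1, 1087 at day 3 and 1345 at day 6 by its brighter probe set. The day 1 value was 1.89-fold below control, just within the threshold. That probe set carries the mark for sequence shared within a gene family. The unmarked probe set read 1006 in control, 815 at day 1, 978 at day 3 and 1289 at day 6, with log2 changes of -0.30, -0.04 and 0.36. The probe sets therefore agreed that day 1 was the lowest array and disagreed in sign at day 6.

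Of the angiopoietins and the Tie receptor phosphatase, Angpt2 and Ptprb were above the floor. Angpt2, which antagonises Tek in many settings, read 273 in control and 584 at day 1, a rise of 2.14-fold, and was below the floor at days 3 and 6 with 141 and 160. Ptprb, the endothelial phosphatase VE-PTP that acts on Tek and on VE-cadherin, read 450 in control, 217 at day 1, 215 at day 3 and 416 at day 6. It fell 2.08-fold at day 1 and 2.09-fold at day 3. Angpt1, the activating ligand of Tek, was below the floor on all 4 arrays.

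By brightest probe set, Eng had the highest day 1 value relative to control of the 10 genes. Endoglin is a co-receptor for TGF-β and BMP ligands on endothelium and is also carried by activated macrophages. It read 7513 in control, 12380 at day 1, 6385 at day 3 and 7565 at day 6. Day 1 stood above the other 3 arrays at 1.65-fold of control, and day 6 was equal to control within 1.01-fold. The gap between days 1 and 3 was 1.94-fold. Of its 14 measured partners, 1 fell past 2-fold at day 1 and 0 rose. Among the 6254 genes above the floor on at least 1 array, 8.36% fell and 7.5% rose that day. At day 3 there was 1 partner in each direction, beside 3.26% lower and 3.81% higher, and at day 6 there was 0. The cytokine Tgfb1 read 671 in control, 1337 at day 1, 1804 at day 3 and 650 at day 6. It was 1.99-fold higher at day 1, just within the threshold, and rose 2.69-fold at day 3. Tgfb3 fell 2.06-fold at day 1, and the inhibitory Smad7 fell 2.20-fold at day 3. Acvrl1, the type I receptor that signals with endoglin, had log2 changes of -0.21, -0.51 and -0.45 by its brightest probe set, and 1 of its other probe sets differed in sign at days 1 and 3.

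Among the junction genes, Cldn5 fell most and Cdh5 kept its level at day 1. Cldn5, the main claudin of endothelial tight junctions, read 3956 in control, 976 at day 1, 1038 at day 3 and 2326 at day 6. The day 1 and day 3 arrays were about equal and far below control, and the day 6 array lay between. Cldn5 fell 4.05-fold at day 1 and 3.81-fold at day 3. At day 6 it was 2.24-fold above day 3 and 1.70-fold below control.

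Cdh5, the cadherin of endothelial adherens junctions, read 4207 in control, 4186 at day 1, 2527 at day 3 and 5158 at day 6. Control and day 1 were equal within 1.01-fold and day 3 was the lowest array, at a log2 change of -0.74. From day 3 to day 6 it was 2.04-fold higher, and day 6 was the highest array. Pecam1, the adhesion molecule CD31, which platelets and leukocytes carry too, read 421 in control, 210 at day 1, 290 at day 3 and 325 at day 6. All treated arrays were below control and day 1 was the lowest, at 2.01-fold. Its day 1 value was near the floor.

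Of 14 other junction and adhesion genes above the floor, 3 fell past 2-fold at day 1, 2 at day 3 and 1 at day 6, and 1 rose, at day 6. The median log2 change was -0.39 at day 1, -0.32 at day 3 and -0.14 at day 6. Mcam, the adhesion molecule CD146 of endothelium and pericytes, read 8252 in control, 3202 at day 1, 2798 at day 3 and 3702 at day 6, and fell 2.58-fold, 2.95-fold and 2.23-fold on these days. Plakoglobin (Jup), which links cadherins to the cytoskeleton, fell 2.62-fold at day 1 and 2.01-fold at day 3. Caveolin-1 (Cav1), the coat protein of caveolae in both endothelium and fat cells, read 9977 at day 1 against 23626 in control and fell 2.37-fold. Cldn3, a claudin mainly of epithelia, read 698 at day 6 against 288 in control and rose 2.42-fold. β-catenin (Ctnnb1) had log2 changes of 0.02, -0.29 and -0.44, and the scaffold Tjp1 of -0.63, -0.91 and 0.05.

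**Figure D2:**
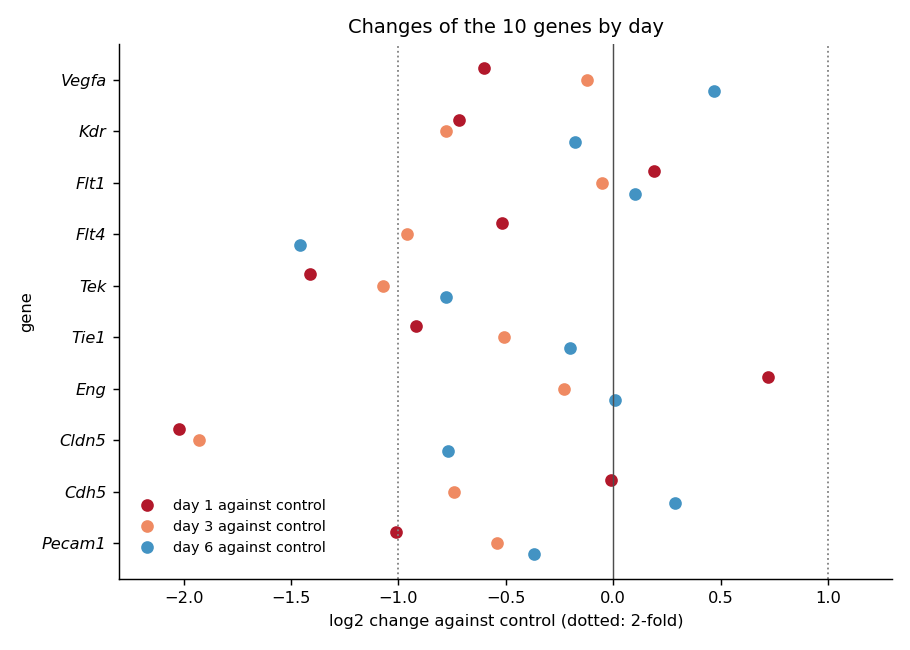
Log2 change against control of the 10 genes, 1 row per gene and 1 point per treated day (brightest probe set), with dotted lines at 2-fold and no error bars because each point is 1 array against 1 array. Cldn5 and Tek lie beyond 2-fold on days 1 and 3 and nearer to 0 on day 6, Flt4 passes 2-fold on day 6, where its point is a bound, and Eng at day 1 is the farthest to the right.

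Counted together, 3 of the 10 genes (Cldn5, Tek and Pecam1) were past 2-fold lower at day 1 and 0 higher, when 6.34% of all 8251 genes were lower and 5.68% higher. At day 3, 2 of the 10 (Cldn5 and Tek) were lower, against 2.47% of all genes, and at day 6 1 of the 10 (Flt4), against 1.24%. No member was past 2-fold higher than control at day 3 or day 6, with 2.88% and 1.31% of all genes higher on those days. A gene that never exceeds the floor cannot pass 2-fold; over the other 6254 genes, 8.36% were lower and 7.5% higher at day 1, 3.26% and 3.81% at day 3, and 1.63% and 1.73% at day 6. The median log2 change of the 10 genes was -0.66 at day 1, -0.64 at day 3 and -0.19 at day 6, beside medians of -0.02, 0.00 and 0.00 over those 6254 genes. At day 3 all 10 were below control, as were 49% of those genes. Of the 10, Eng, Flt1 and Vegfa lay within 1 probe set error of control at day 3. The unmarked Tie1 probe set also did, at -0.04. With 10 genes, several of them chosen as markers of one cell type, these shares are descriptions of these arrays.

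The times at which the genes were lowest differed. On the day 1 array 5 genes had their lowest value (Cldn5, Pecam1, Tek, Tie1 and Vegfa), on the day 3 array 4 (Cdh5, Eng, Kdr and Flt1) and on the day 6 array 1 (Flt4). From day 1 to day 3 no gene passed 2-fold, against 4.42% of all genes higher and 4.76% lower, and the median log2 change was 0.01. From day 3 to day 6, 2 genes (Cldn5 and Cdh5) were past 2-fold higher and 0 lower, against 1.14% and 2.01% of all genes, and 9 of 10, all but Flt4, had a log2 change above 0, as did 49.4% of genes above the floor. At day 6 Eng, Kdr, Flt1 and Tie1 were, by brightest probe set, within 1 probe set error of control, though the unmarked Tie1 probe set was not, at 0.36 against an error of 0.25. By the same probe sets Cldn5, Flt4 and Tek lay at least 3 such errors below it. The error was taken from probe sets above the floor, and Flt4 was below the floor at day 6, so the error does not cover that value. In bulk tissue, fewer endothelial cells and less of each RNA per cell cannot be told apart.

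**Figure D3:**
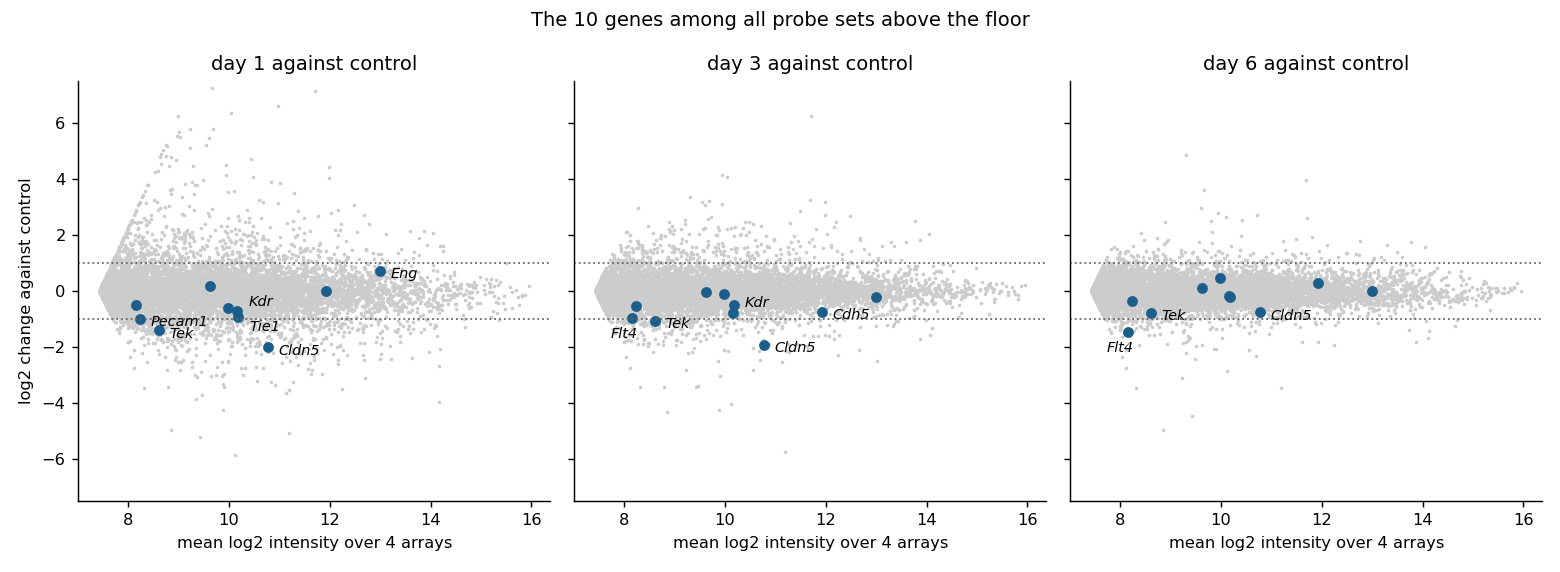
Log2 change against control (vertical) by mean log2 intensity over the 4 arrays (horizontal) on days 1, 3 and 6; grey points are all probe sets above the floor on at least 1 array, blue points the 10 genes by their brightest probe set, named where their change is at least 0.7 in size. Dotted lines mark 2-fold; at day 1 the member farthest below 0 is Cldn5 at -2.02, and at day 6 it is Flt4 at -1.46.

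Other genes of vessel biology, and with them 13 measured genes of the hypoxia response, were read from lists. Of 90 such genes with a measurable level, 8.89% rose and 12.2% fell past 2-fold at day 1, 3.33% rose and 11.1% fell at day 3, and 2.22% rose and 3.33% fell at day 6. Among the 6254 genes of any kind, the shares that rose and fell were 7.5% and 8.36% at day 1, 3.81% and 3.26% at day 3, and 1.73% and 1.63% at day 6. These shares are also the background for the counts of each list in this report. Of the 90 genes, 8 rose and 11 fell at day 1, and the hypoxia response genes held 4 and 2 of these. Of 14 endothelial transcription factors, 1 fell at day 1, 3 at day 3 and 0 at day 6, and 0 rose. Sox7, a SoxF factor of developing vessels, read 960 in control, 285 at day 1, 462 at day 3 and 622 at day 6, and fell 3.37-fold at day 1 and 2.08-fold at day 3. Its relative Sox18 stayed within 2-fold, with 2122 in control and 1935, 2274 and 2942 on the treated days. For Sox17, the third SoxF gene, the brighter probe set was within 2-fold and the other was 2.50-fold higher at day 1 and 2.32-fold at day 6. Klf2, a factor induced by blood flow, read 516 in control, 429 at day 1 and 314 at day 6, and at day 3 its value was below 0, a fall of at least 2.97-fold. Nr2f2, a factor of venous and lymphatic endothelium that other cells of fat also express, read 438 at day 3 against 955 in control and fell 2.18-fold. Of 5 Notch and Eph genes above the floor, 1 passed 2-fold, the arterial ligand Efnb2, which fell 2.40-fold at day 3, with 259 against 621 in control.

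Among 17 further endothelial genes above the floor, 3 rose and 2 fell at day 1, 2 rose and 1 fell at day 3, and 1 rose and 2 fell at day 6. P-selectin (Selp), a leukocyte adhesion receptor, was below the floor in control, at 26, and read 1203 at day 1, a rise of at least 6.93-fold; it was below the floor at days 3 and 6. Icam1, another such receptor, read 801 at day 1 against 287 in control and rose 2.79-fold, and Vcam1 read 396 in control, 676 at day 1, 846 at day 3 and 1037 at day 6. Vcam1 was 2.13-fold higher at day 3 and 2.62-fold at day 6; 1 of its other 2 probe sets was 1.27-fold higher at day 6. The scavenger receptor Stab1, shared with macrophages, rose 2.80-fold at day 3. Rasip1 was the other of the 3 genes that rose at day 1, with 1718 against 798 in control, or 2.15-fold. Falling genes included endothelial nitric oxide synthase (Nos3), which read 1044 in control, 441 at day 1, 1057 at day 3 and 1355 at day 6 and fell 2.37-fold at day 1. The sphingosine phosphate receptor S1pr1 fell at least 2.45-fold at day 1, when its value of 146 lay below the floor. Thrombomodulin (Thbd) was near control at day 1, with 3406 against 3952, and fell 5.53-fold at day 3 and 5.05-fold at day 6, or 4.38-fold and 2.67-fold by its other probe set. The coagulation inhibitor Tfpi fell 2.02-fold at day 6. Of those within 2-fold, the endothelial and progenitor cell marker Cd34 had log2 changes of -0.60, -0.87 and -0.64. Von Willebrand factor (Vwf) had -0.95, -0.38 and -0.60. Others within 2-fold were higher at day 1: Cd93 had log2 changes of 0.70, 0.56 and 0.04, and Edn1 of 0.85, -0.68 and -0.14. The median log2 change of the 17 genes was 0.23 at day 1, -0.27 at day 3 and 0.00 at day 6. At day 1, 10 of the 17 were above control and 7 below.

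The listed genes of the hypoxia response included the Vegfa regulator Hif1a. At day 1, 4 of 13 rose past 2-fold and 2 fell, beside 7.5% and 8.36% of the 6254 genes above the floor. Their median log2 change that day was 0.13, with 8 above control and 5 below. At days 3 and 6, 0 passed. Hif1a, the oxygen-regulated factor that activates Vegfa, read 6924 in control, 17479 at day 1, 6723 at day 3 and 5921 at day 6, and rose 2.52-fold at day 1, with its other probe set at 2.50-fold; both carry the mark for sequence shared within a gene family. The hypoxia-responsive genes Slc2a1, Pgk1 and Ddit4 rose at least 4.13-fold, 2.77-fold and 2.66-fold at day 1. On the same array Bnip3, also hypoxia-responsive, fell 3.20-fold and the prolyl hydroxylase Egln1, which marks HIF for degradation, fell 2.41-fold, and Vegfa stood at 699 against 1058 in control. Of 6 inhibitors of vessel growth above the floor, 0 passed 2-fold on any of the 3 days by brightest probe set. For Col18a1, the source of endostatin, 2 dimmer probe sets were past 2-fold lower on all 3 days. The first had log2 changes of -1.22, -1.91 and -1.58. The second had -1.27 at day 1, a value just past 2-fold at day 3 and -1.47 at day 6. Another probe set, with 2335 in control, had log2 changes of -0.58, -0.60 and -0.53. The probe set brightest by mean was within 0.25 of control.

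Markers of other cells moved on the same arrays. Summed over 7 adipocyte markers, the intensity was 131438 in control, 65747 at day 1, 108722 at day 3 and 137231 at day 6, and 4 of the 7 fell past 2-fold at day 1: Lep 11.5-fold, Slc2a4 6.26-fold, Pparg 3.75-fold and Adipoq 2.05-fold. None of the 7 was below the floor on all arrays, and adiponectin (Adipoq), a defining fat cell product, read 52054 in control. Over 8 macrophage markers the sum was 22849 in control, 61932 at day 1, 54498 at day 3 and 25817 at day 6, with 5 of 8 higher past 2-fold at day 1 and 4 of 8 at day 3. The largest of these changes were in Itgam (14.1-fold), Mpeg1 (8.50-fold), Cd14 (7.40-fold), all at day 1, and Cd68 (5.46-fold at day 3). The part of these shifts in the values of Cldn5, Tek, Pecam1 and Eng was not tested. The 7 mural cell markers of vessel walls had a summed intensity of 13537 in control, 9266 at day 1, 8010 at day 3 and 8658 at day 6, and 3, 2 and 1 of them fell past 2-fold on the treated days. Myh11 fell 3.38-fold, Rgs5 2.53-fold and Cnn1 at least 2.18-fold at day 1, and Acta2 fell 2.23-fold at day 3. Of the 7, Pdgfrb and Des were above control at day 1, with log2 changes of 0.60 and 0.10. Of the 4 platelet markers with a probe set, Pf4, Gp9 and Gp1bb were below the floor on all 4 arrays and Gp5 was above it at day 1 alone, at 209. Of the vascular endothelial marker list, 2 genes with a probe set are not among the 10: endomucin (Emcn) read 1194 in control, 1111 at day 1, 983 at day 3 and 1368 at day 6, and Icam2 read 360, 370, 320 and 707, which was 1.96-fold above control at day 6.

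**Figure D4:**
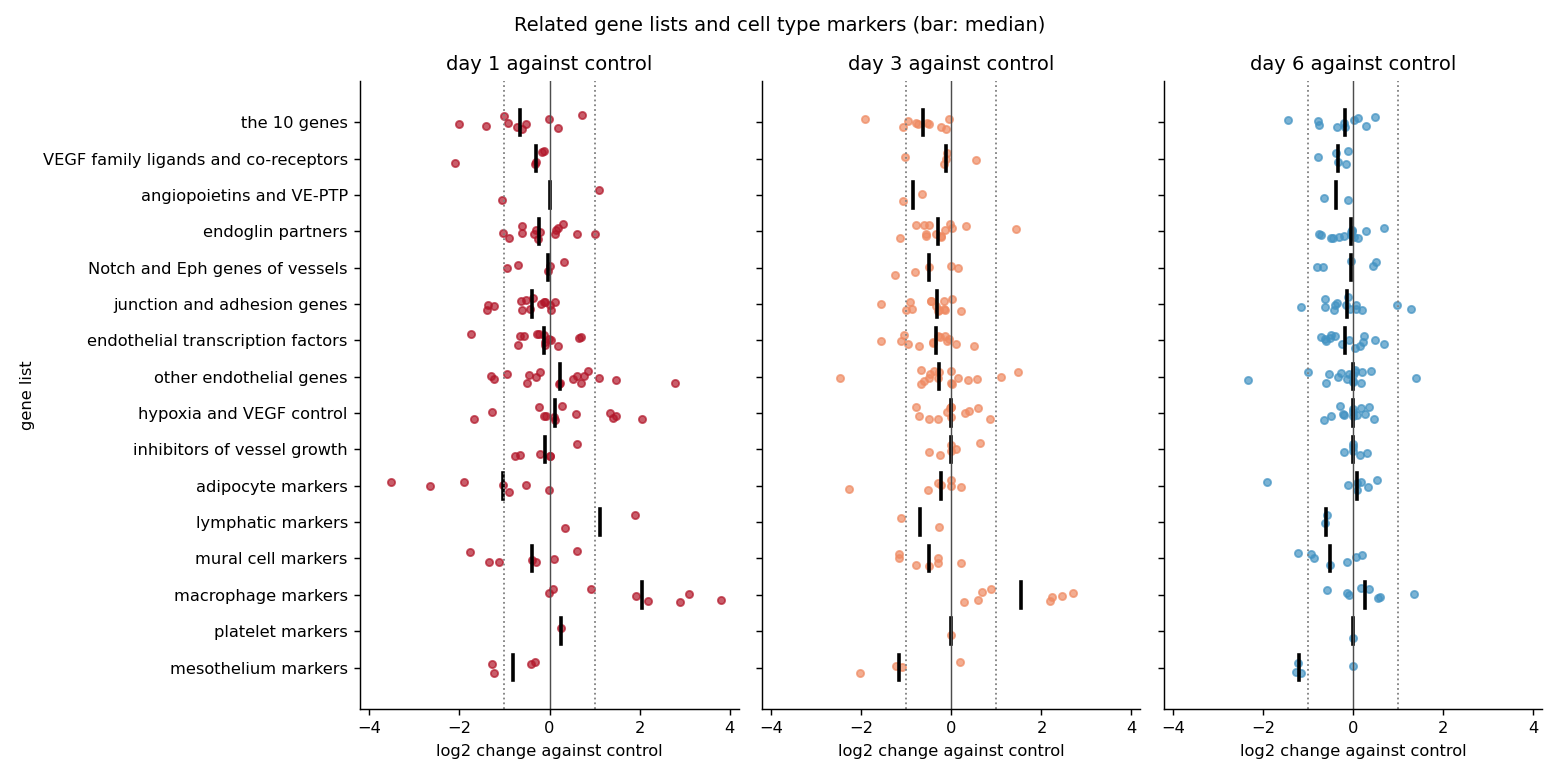
Log2 change against control of every gene above the floor on at least 1 array (points, brightest probe set) in the 10 genes, the related lists and the cell type marker lists, on days 1, 3 and 6; black bars are list medians and dotted lines mark 2-fold. The bar of the 10 genes lies at -0.66, -0.64 and -0.19, and that of the macrophage markers at 2.05, 1.54 and 0.25.

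The genes most like the members with the largest changes were found by the root mean square difference of their log2 changes over the 3 treated days, among genes at least 2 times the floor on all arrays. Nearest to Cldn5, of 4142 genes, were the complement component C2, the glutathione transferase Gstt1 and the peptidase Tpp2, at differences of 0.12, 0.14 and 0.15. C2 read 5748 in control, 1272 at day 1, 1562 at day 3 and 3080 at day 6. With the day 6 value of Flt4 set at the floor, Cdc42ep4, Emp1 and Slc6a13 came nearest to it; that value is a bound, so neither their differences nor their order is settled. With 3 changes per gene, all against the same control array, such likeness is a description.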

How the data were processed

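The authors deposited 1 table of linear probe set intensity values, 12488 probe sets on 4 arrays; their software, background step and normalization are not stated in the labels or the table, and between 12.2% and 12.4% of values per array were at or below 0. The labels' descriptions give pooled RNA and 1 array per group. The titles of 2 samples write the compound as CL 316234; the descriptions write CL 316243, which is used here. After leaving out 66 control probe sets, arrays were scaled to the same trimmed mean, taken from the 2nd to the 98th percentile (factors 0.998 to 1.001), and values were raised to the 40th percentile, 174, before log2 was taken. Intensities are printed after scaling and before the floor; where the dimmer value is at the floor, the fold is a lower bound.

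Of 12422 probe sets, 10833 had 1 symbol, 396 several and 1193 are unnamed here; the RefSeq table of GRCm38.p6 changed 0 symbols. The members and lists were chosen with earlier results of these data known. From each list the text names up to 4 genes per direction with the largest change past 2-fold in genes that reach 2 times the floor on either array. Those named otherwise were chosen after their values were seen. Among them are Vegfc, Vegfd, Nrp1, Angpt1, Acvrl1, Ctnnb1, Tjp1, Sox17 and Sox18. They also include Cd34, Vwf, Cd93, Edn1, Rasip1, Col18a1, Prox1, Wt1 and the platelet markers. With 1 array per group no test was run. The error of a log2 change is the scaled median absolute deviation of the difference between a gene's 2 brightest probe sets, both above the floor on both arrays, divided by the square root of 2. The steps were tested on known folds planted, without noise, in bright probe sets of the copied control array. That test did not cover dim genes. Promoter sequences are from RefSeq, GRCm38.p6. Python 3.11.15, numpy 2.4.6 and pandas 2.3.3 were used.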

Additional observations from a re-analysis of the deposited data

Results flagged for a closer look

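Cdh5 lay on opposite sides of control at days 3 and 6, with log2 changes of 0.29 at day 6 and -0.74 at day 3, each larger than the probe set error. The day 6 change minus the day 3 change was 1.03. Vegfa did so at days 1 and 6, with log2 changes of 0.47 at day 6 and -0.60 at day 1, and the day 6 change minus the day 1 change was 1.07. With 1 array per day neither difference was tested.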

How the results depend on the processing

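No paired analysis was possible because each group has 1 array. For the same reason no replicate could be left out. Of 400 member log2 changes recomputed under 8 alternatives, 375 moved by less than the probe set error, 25 by more, and 0 that had passed 2-fold changed sign. Of the 25, 19 came with another floor or a pseudocount and 6 with another probe set rule, and 0 with no scaling or quantile normalization. Many of the 400 could hardly move. The arrays came with nearly identical distributions, only 3 members have 2 probe sets, and a lower floor or none changes only values at the floor. The 375 are therefore no measure of how robust the changes are. With a floor raised to the 60th percentile, the count of members past 2-fold was 1 at day 1, 1 at day 3 and 0 at day 6 against control, and the median log2 change was -0.18 at day 1 and -0.30 at day 3; Pecam1, Flt4 and Tek are dim, and that floor hides most of their range. With a pseudocount in place of the floor, which shrinks changes of dim genes by construction, the count was 1 at day 1, 1 at day 3, 0 at day 6 and, for day 6 against day 3, 1. The mean over probe sets gave a count of 0 at day 6, since the second Flt4 probe set lies below the floor. At a threshold of 1.5-fold, 7 members passed at day 1, 5 at day 3 and 3 at day 6 against control, 2 between days 1 and 3, and 4 between days 3 and 6. By its unmarked probe set Tie1 had log2 changes of -0.30, -0.04 and 0.36. Leaving out Vegfa, or Pecam1 and Eng, chosen after seeing the data, kept each count within 1.5 times and moved no median by more than the probe set error. Cldn5 stayed past 2-fold lower at days 1 and 3 under each of the 8 alternatives.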

Other observations

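Markers of the mesothelium, the cell layer that covers the epididymal fat pad, were lower on the treated arrays. Over 4 markers the summed intensity was 7532 in control, 3440 at day 1, 3171 at day 3 and 3280 at day 6. Upk3b, a uroplakin of mesothelial cells, read 5355 in control, 2281 at day 1, 2287 at day 3 and 2377 at day 6, and fell 2.35-fold at day 1. The keratin Krt19 read 1471, 611, 358 and 610 over the same times and fell 4.11-fold at day 3. Mesothelin (Msln) read 411 in control, 312 at day 1 and 192 at day 3, and was below the floor at day 6. Wt1, the transcription factor of these cells, stayed within 2-fold, with 294 in control, 236 at day 1, 333 at day 3 and 293 at day 6.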
